A study of Mus musculus with 8 samples.

Results

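The DNA replication machinery was described here as 40 genes that load, switch on and carry the replication fork, from the origin recognition complex to the factor that puts histones back on new DNA. The genes were chosen by name for their known function and matched by exact symbol in the count tables, which list 24421 genes; all 40 were found, and all 40 were among the 10396 genes tested. The samples were 8 libraries of mouse CD8+ T cells, the killer cells of the adaptive immune system, sequenced by a 3′ RNA-seq method that counts the polyadenylated ends of transcripts. In the LKB1-deficient group (4 libraries) the cells were deficient in LKB1, a kinase encoded by Stk11 that switches on AMPK and related kinases when energy runs low. In the control group (4 libraries) the cells were wild type for LKB1. Cells of both groups were naive CD8+ T cells kept for 48 hours on plates coated with antibodies to CD3 and CD28, so every library came from cells that had been driven to divide. The labels do not give the age of the mice, the part of Stk11 that was deleted, the allele or driver that removed it, or whether the replicates came from separate animals. The p-values below therefore measure the spread between these libraries, which may be technical.

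A cell copies its genome once per division. In G1 phase the origin recognition complex, Cdc6 and Cdt1 load the MCM helicase as an inactive double ring; at the start of S phase Cdc45 and GINS join it and it begins to unwind DNA. Primase and polymerase alpha then start each strand, the clamp loader seats the PCNA ring, and polymerases epsilon and delta extend the leading and lagging strands. T cells leave quiescence with little of this machinery and build it up after their receptor is engaged, and many of its genes are known targets of the E2F transcription factors.

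The libraries differed in depth and in composition. They held 3454388 to 6356125 gene counts in LKB1-deficient cells and 7090252 to 12211930 in control cells, and every member had at least 81 reads in every library. LKB1-deficient replicates 2 and 4 stood apart on the first principal component of all tested genes, at -51.7 and -54.4, against -12.5 and -6.79 for LKB1-deficient replicates 1 and 3 and 21.7 to 37.9 for the control libraries. Stk11 itself averaged 79.8 ± 19.1 CPM (gene counts scaled to library size) in LKB1-deficient cells and 81.9 ± 13.9 CPM in control cells (SD, n = 4 each). Its single values were 76.5, 70.8, 107 and 64.4 CPM in LKB1-deficient replicates 1 to 4, against 101, 67.8, 82.0 and 77.0 CPM in control replicates 1 to 4. The reads come from the 3′ end of the transcript and the deleted part is not stated, so this level does not check the labels. The markers of CD8 T cells were all detected in every library, with a summed level of 1999 to 3010 CPM in LKB1-deficient cells and 3555 to 4079 CPM in control cells. Of the 8 markers 3 (Cd3d, Cd3g and Cd8a) were called lower and 0 higher, 37.5% in all. Of all tested genes 22.5% were called, 10.1% of them lower. Cd247, Cd8b1 and Cd5 had negative log2 fold changes (-0.34, -0.49 and -0.28), Cd3e and Cd2 positive ones (0.32 and 0.24). None of these 5 was called.

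Promoters of the members were taken from RefSeq (build GRCm38.p6, from 250 bases before the transcription start to 50 after it), a feature that the choice of members did not use. They were searched on both strands for 4 versions of the E2F-type motif, TTTCCCGC, TTTGGCGC, TTTCGCGC and TTTGCCGC, with overlapping matches counted separately. Of the 40 members 32 were matched, and 13 of these (40.6%) held at least 1 match, against 5.15% of tested genes with a promoter and 2.60% of all genes with a promoter there. A CCAAT box, the letters CCAAT on either strand, was present in 65.6% of the 32 members and 43.2% of tested genes. The matches were spread over the roles: 4 of 5 MCM genes with a promoter, 3 of 5 origin and licensing genes and 3 of 6 polymerase and primase genes had one, and none of the 3 RPA genes did. The 13 windows are shown because each holds at least 1 match to a version of the motif. The version and its strand differ between genes, as do the letters around it. Capitals mark the motif (on the strand read or on its reverse), and each window is written 5′ to 3′ on the strand of its gene.
Mcm3, chr1:20820275-20820304, minus strand: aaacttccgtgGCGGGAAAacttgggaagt
Mcm6, chr1:128359797-128359826, minus strand: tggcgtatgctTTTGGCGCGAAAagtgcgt
Orc1, chr4:108579416-108579445, plus strand: ttcggttagtgGCGCGAAAagttttctcct
Mcm7, chr5:138172030-138172059, minus strand: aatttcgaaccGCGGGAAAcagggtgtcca
Rfc3, chr5:151651200-151651229, minus strand: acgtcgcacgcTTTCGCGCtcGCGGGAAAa
Lig1, chr7:13278841-13278870, plus strand: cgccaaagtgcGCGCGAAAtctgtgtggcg
Pold1, chr7:44548766-44548787, minus strand: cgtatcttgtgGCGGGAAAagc
Mcm5, chr8:75109345-75109374, plus strand: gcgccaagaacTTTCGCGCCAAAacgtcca
Gins3, chr8:95633507-95633536, plus strand: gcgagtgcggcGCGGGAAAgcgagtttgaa
Cdt1, chr8:122568036-122568064, plus strand: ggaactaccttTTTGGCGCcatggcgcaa
Cdc6, chr11:98908002-98908031, plus strand: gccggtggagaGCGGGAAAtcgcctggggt
Pole2, chr12:69228162-69228191, minus strand: cgtcggcggtgGCGCCAAAtcgcgaacatg
Pola1, chrX:93632275-93632304, minus strand: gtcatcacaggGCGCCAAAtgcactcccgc

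The first base of the first match lay between 165 bases upstream of the start (Mcm7) and 39 bases downstream of it (Pold1), and was 27 bases upstream in Orc1, 10 upstream in Rfc3 and 10 downstream in Pole2. Mcm6 held 3 matches, the most of any member. The 250 bases before the start are printed whole for Mcm6, for Orc1, which was called higher, and for Rfc4, whose lower level was the firmest call among the members and whose window held no match to these letters.
Mcm6, chr1:128359706-128359955, minus strand: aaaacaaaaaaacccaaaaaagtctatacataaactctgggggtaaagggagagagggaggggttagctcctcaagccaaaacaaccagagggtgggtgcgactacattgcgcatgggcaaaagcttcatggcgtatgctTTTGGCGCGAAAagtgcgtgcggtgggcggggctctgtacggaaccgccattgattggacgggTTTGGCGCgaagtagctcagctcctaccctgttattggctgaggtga
Orc1, chr4:108579204-108579453, plus strand: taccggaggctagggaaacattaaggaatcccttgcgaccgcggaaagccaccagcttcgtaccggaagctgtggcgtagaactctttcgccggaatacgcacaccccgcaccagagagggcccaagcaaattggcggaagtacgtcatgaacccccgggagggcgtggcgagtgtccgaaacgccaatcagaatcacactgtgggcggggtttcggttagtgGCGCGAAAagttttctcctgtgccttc
Rfc4, chr16:23127731-23127980, minus strand: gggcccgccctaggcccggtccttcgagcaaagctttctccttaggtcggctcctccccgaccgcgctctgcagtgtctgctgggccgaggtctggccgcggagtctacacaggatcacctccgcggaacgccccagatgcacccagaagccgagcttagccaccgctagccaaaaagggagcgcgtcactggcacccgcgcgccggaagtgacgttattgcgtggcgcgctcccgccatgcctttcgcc
A match is a description of the letters and not of a bound site. Among the members called higher 1 of 3 with a promoter (Orc1) held a match, among those called lower 1 of 3 (Pole2) and among those not called 11 of 26.

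The summed level of the machinery was similar in both groups, a measure that weighs abundant genes most and can hide changes in opposite directions. The 40 members summed to 6691, 7288, 6547 and 7135 CPM in LKB1-deficient replicates 1 to 4, against 6825, 6469, 6479 and 6802 CPM in control replicates 1 to 4. The sums of the groups overlapped, with LKB1-deficient replicates 2 and 4 above every control library. With edgeR's quasi-likelihood test and Benjamini-Hochberg adjustment over all tested genes, 9 members passed an adjusted p of 0.05: Orc1, Mcm10 and Chaf1a were higher, and Gins2, Gins4, Pole2, Rfc2, Rfc4 and Rpa3 were lower in LKB1-deficient cells. These 9 of 40 are 22.5% of the members, and 22.5% of all tested genes were called (12.4% higher and 10.1% lower), so the share of calls was that of the background. The median log2 fold change (LKB1-deficient over control) was -0.10 over the members and 0.004 over all tested genes. The changes were small: the median size was 0.295 on the log2 scale for members and 0.345 for all tested genes, and none of the members changed by over 2-fold, against 9.56% of tested genes. Of the 31 members not called, 17 had a 95% interval that lay wholly within a 1.5-fold change in either direction. DESeq2 called the same 9 members and also Orc2, Rfc1, Mcm3 and Mcm4 as higher and Gmnn and Rfc5 as lower, when it called 25.6% of all genes it tested. In bulk samples fewer cells of a type, such as cells in S phase, and less RNA per cell cannot be told apart.

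**Figure D1:**
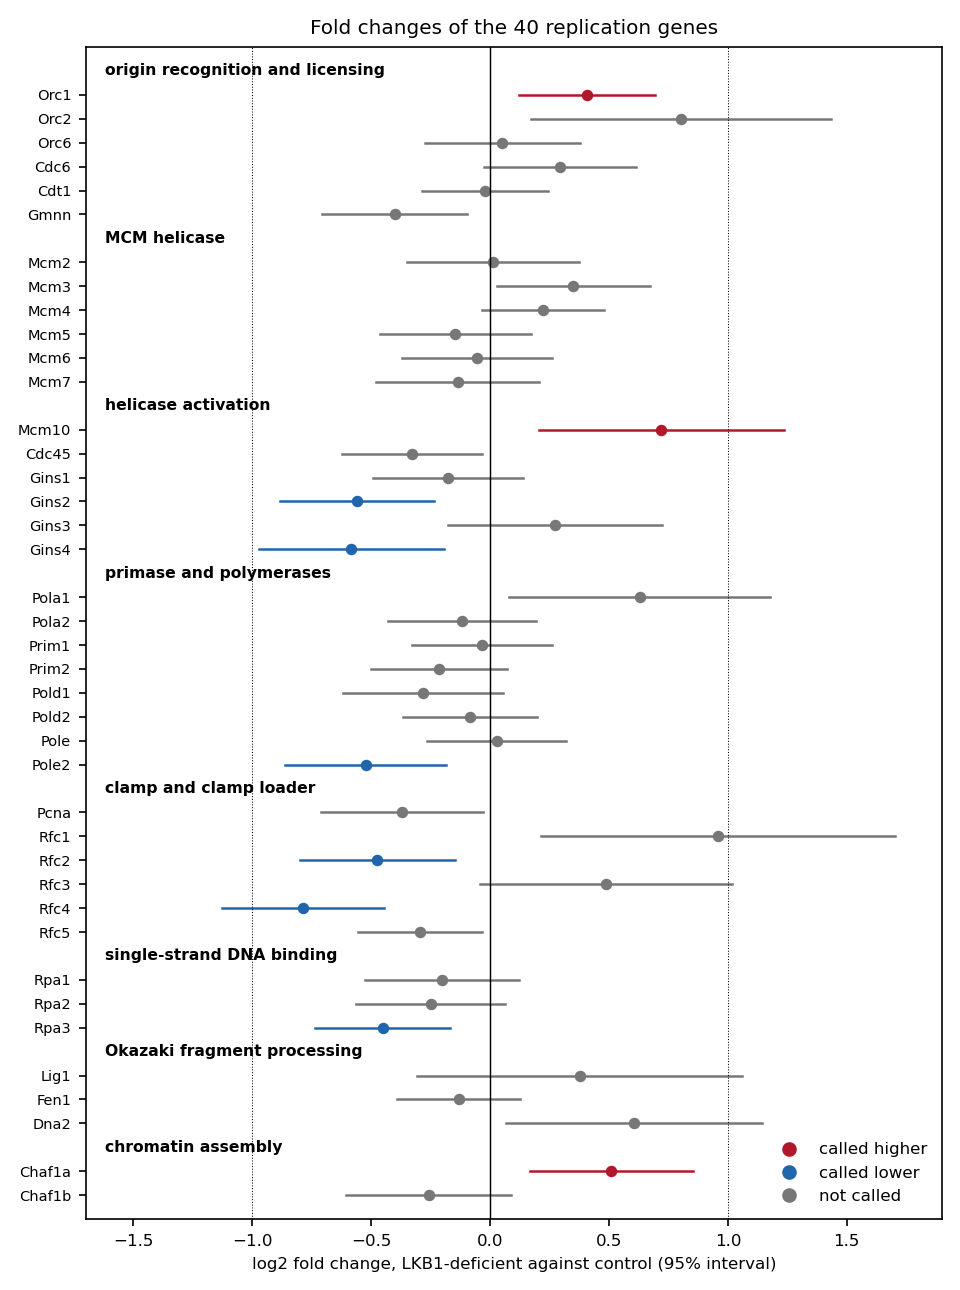
Log2 fold change (LKB1-deficient over control) of the 40 members on the horizontal axis, grouped by role, with bars for the 95% interval of edgeR's fit, red for members called higher, blue for those called lower and grey for the rest. Members lie between -0.79 (Rfc4) and 0.96 (Rfc1), on both sides of 0. The intervals of Mcm2 and of Mcm4 to Mcm7 include 0, and that of Mcm3 (0.03 to 0.67) lies just above it.

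The origin recognition and licensing genes included 1 called member of 6 (16.7%, against 22.5% of all tested genes). Orc1, the large ATPase subunit of the origin recognition complex, had 55.1, 52.5, 57.0 and 56.6 CPM in LKB1-deficient replicates 1 to 4, against 35.9, 38.4, 43.6 and 49.1 CPM in control replicates 1 to 4. Every LKB1-deficient library lay above every control library, and the LKB1-deficient values were close together. The log2 fold change was 0.41 ± 0.13 (SE), a 1.33-fold higher level (edgeR adjusted p = 0.0456). The call was held in 5 of 22 alternative analyses.

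Orc2, another subunit of the same complex, had 179, 376, 143 and 333 CPM in LKB1-deficient replicates 1 to 4, against 152, 171, 134 and 134 CPM in control replicates 1 to 4. Replicates 2 and 4 of the LKB1-deficient group were high and the other two lay in or beside the control range, so the groups overlapped; the log2 fold change of 0.80 ± 0.28 did not pass (edgeR adjusted p = 0.0644). It passed without LKB1-deficient replicate 1 (0.0434) or 3 (0.019), and the log2 fold change was 0.13 without replicates 2 and 4. Orc6, the smallest subunit, averaged 232 ± 24.8 CPM in LKB1-deficient cells and 224 ± 32.6 CPM in control cells (SD, n = 4 each; log2 fold change 0.05 ± 0.15). Cdc6, the ATPase that helps ORC load the helicase, had 107, 116, 104 and 152 CPM in LKB1-deficient cells, against 91.2, 93.7, 102 and 103 CPM in control cells. Its groups did not overlap, by a narrow margin, and its log2 fold change of 0.29 ± 0.14 did not pass (edgeR adjusted p = 0.155). Without LKB1-deficient replicate 4 it was 0.16.

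Cdt1, which brings MCM to the origin, and geminin (Gmnn), the protein that binds Cdt1 and stops a second round of loading, were measured side by side. Cdt1 averaged 82.7 ± 5.45 CPM in LKB1-deficient cells and 84.0 ± 8.28 CPM in control cells (SD, n = 4 each), with a log2 fold change of -0.02 ± 0.12. Gmnn had 278, 210.4, 261 and 273 CPM in LKB1-deficient replicates 1 to 4, against 316, 343, 324 and 368 CPM in control replicates 1 to 4. All LKB1-deficient libraries lay below all control libraries for Gmnn, but the log2 fold change of -0.40 ± 0.14 stayed short of the threshold (edgeR adjusted p = 0.0579). With the transcript length trend removed it was -0.11 (edgeR adjusted p = 0.562).

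None of Mcm2 to Mcm7, the 6 subunits of the MCM helicase ring, was called; their median log2 fold change was -0.02, and 5 of the 6 had a 95% interval within a 1.5-fold change. The summed level of the 6 was 1825 to 2271 CPM in LKB1-deficient cells and 1784 to 2026 CPM in control cells. Mcm4 had 309, 305, 318 and 307 CPM in LKB1-deficient replicates 1 to 4, against 271, 279.7, 263 and 248 CPM in control replicates 1 to 4. The groups did not overlap and each was tight, but the log2 fold change was 0.22 ± 0.12 (edgeR adjusted p = 0.175), and 0.12 with upper quartile and 0.06 with total count scaling. Mcm3 had 777, 659.7, 582 and 610.3 CPM in LKB1-deficient cells, against 525, 472, 498 and 568 CPM in control cells. It too did not overlap (log2 fold change 0.35 ± 0.14, edgeR adjusted p = 0.102; 0.19 with total count scaling). Mcm2, Mcm5, Mcm6 and Mcm7 overlapped between groups, with log2 fold changes of 0.01 ± 0.16, -0.15 ± 0.14, -0.06 ± 0.14 and -0.14 ± 0.15.

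**Figure D2:**
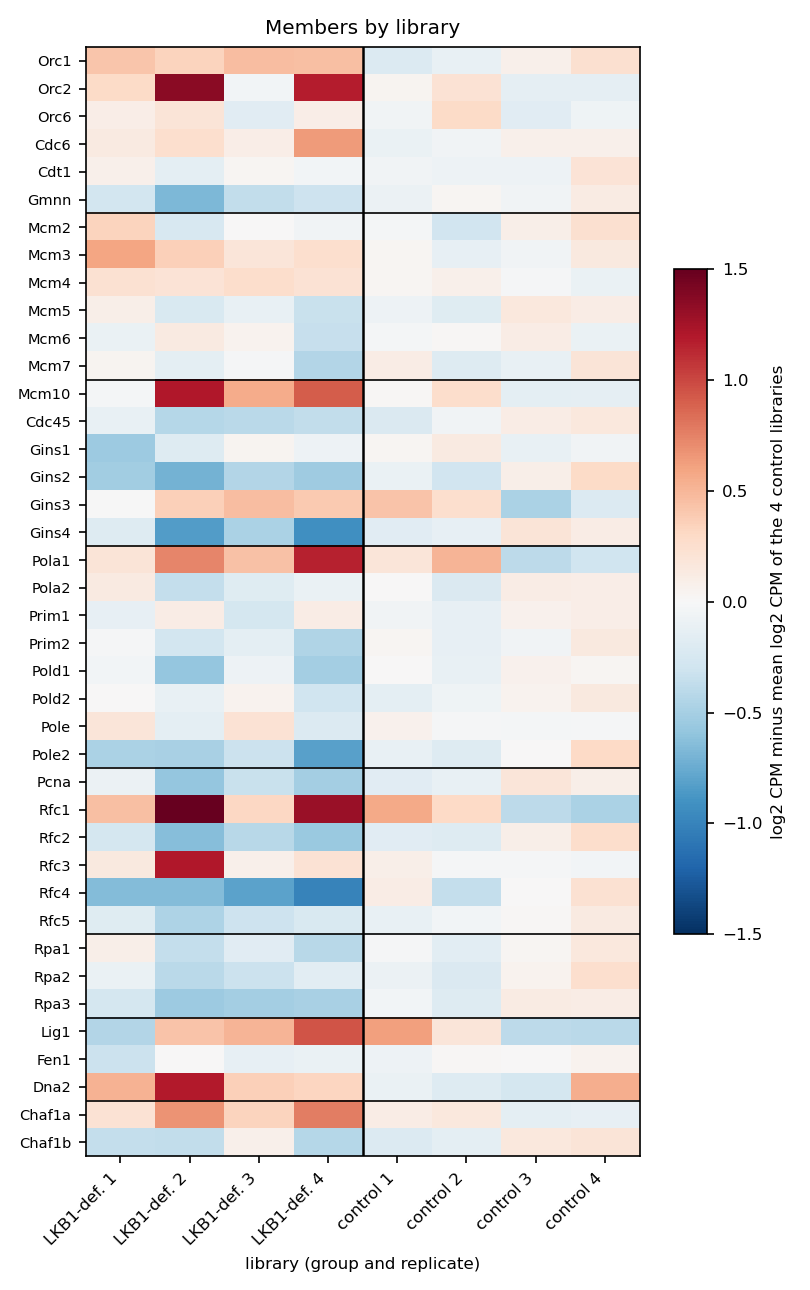
Level of every member in each of the 8 libraries, as log2 CPM minus the mean log2 CPM of the control libraries (colour), with members in rows grouped by role and libraries in columns, LKB1-deficient on the left. LKB1-deficient replicates 2 and 4 carry the strongest colours (13 and 12 members above the control range, 20 below it in each), and most MCM values are pale. The same counts were not made over all tested genes.

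Helicase activation held 3 calls among 6 genes (50%, against 22.5% of all tested genes), in both directions. Shares within lists as short as these roles were not tested. Mcm10, a DNA-binding factor needed when the helicase starts, had 90.0, 211, 135 and 173 CPM in LKB1-deficient replicates 1 to 4, against 92.6, 110.2, 83.2 and 83.5 CPM in control replicates 1 to 4. LKB1-deficient replicate 1 lay within the control range and the other 3 lay above it. The log2 fold change was 0.72 ± 0.23, a 1.65-fold higher level (edgeR adjusted p = 0.049), and without LKB1-deficient replicates 2 and 4 it was 0.30 (adjusted p = 0.418).

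GINS is a complex of 4 small proteins that rides with MCM and Cdc45. Gins2 had 93.7, 82.2, 99.3 and 92.5 CPM in LKB1-deficient replicates 1 to 4, against 126, 110.4, 142 and 164 CPM in control replicates 1 to 4. Gins4 had 100.2, 64.1, 82.3 and 60.7 CPM in LKB1-deficient cells, against 102, 105, 131 and 123 CPM in control cells. Both were lower in every LKB1-deficient library than in any control library, Gins4 only just so for replicate 1. Gins2 fell by 0.56 ± 0.15 on the log2 scale (1.48-fold, edgeR adjusted p = 0.0244) and Gins4 fell by 0.58 ± 0.18 (1.5-fold, adjusted p = 0.0395). The annotated exons of Gins2 overlap those of Gse1 on the other strand over 2758 bases, and the strand setting of the counting is not given, so reads of the pair might be shared.

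The other GINS subunits were not called. Gins1 averaged 57.5 ± 9.43 CPM in LKB1-deficient cells and 65.1 ± 5.02 CPM in control cells, and Gins3 averaged 61.7 ± 8.35 CPM in LKB1-deficient cells and 51.1 ± 14.2 CPM in control cells (SD, n = 4 each). Their log2 fold changes were -0.18 ± 0.14 and 0.27 ± 0.20, so the fitted changes of the 4 subunits ran in both directions. Cdc45, the third part of the active helicase, had 128, 103, 105 and 108 CPM in LKB1-deficient cells, against 119.6, 134, 150.2 and 154 CPM in control cells. Only LKB1-deficient replicate 1 reached the control range, and the log2 fold change of -0.33 ± 0.13 did not pass (edgeR adjusted p = 0.0954).

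Primase and the replicative polymerases included 1 called member of 8 (12.5%, against 22.5% of all tested genes). Pole2, the second subunit of the leading-strand polymerase epsilon, had 58.2, 58.0, 65.2 and 46.1 CPM in LKB1-deficient replicates 1 to 4, against 75.1, 70.8, 81.7 and 100.02 CPM in control replicates 1 to 4. All LKB1-deficient libraries lay below all control libraries, and Pole2 fell by 0.52 ± 0.15 on the log2 scale (1.44-fold, edgeR adjusted p = 0.0362). The catalytic subunit, Pole, averaged 55.3 ± 8.43 CPM in LKB1-deficient cells and 54.4 ± 1.59 CPM in control cells (SD, n = 4 each), with a log2 fold change of 0.03 ± 0.13.

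Pola1, the catalytic subunit of polymerase alpha, had 98.5, 143, 117 and 191 CPM in LKB1-deficient replicates 1 to 4, against 97.2, 122, 65.3 and 70.0 CPM in control replicates 1 to 4. The groups overlapped, since control replicate 2 lay above LKB1-deficient replicates 1 and 3, and the log2 fold change of 0.63 ± 0.25 did not pass (edgeR adjusted p = 0.0881). Its partner subunit Pola2 and the primase subunits Prim1 (catalytic) and Prim2 had log2 fold changes of -0.12 ± 0.14, -0.03 ± 0.13 and -0.22 ± 0.13. Pold1 and Pold2, the catalytic and second subunits of the lagging-strand polymerase delta, had -0.28 ± 0.15 and -0.08 ± 0.13. None of these 5 was called, and for 4 of the 5 the log2 fold change was smaller than 0.25 in size.

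The sliding clamp and its loader held 2 calls among 6 genes (33.3%, against 22.5% of all tested genes), both lower. They also held the lowest and highest fitted fold changes of all members. Rfc4, a small subunit of replication factor C, the ring that opens PCNA and closes it around DNA, had 82.4, 82.5, 74.3 and 64.4 CPM in LKB1-deficient replicates 1 to 4, against 140.4, 101, 130.2 and 152 CPM in control replicates 1 to 4. The highest LKB1-deficient library lay below the lowest control library. Rfc4 fell by 0.79 ± 0.15 on the log2 scale, 1.72-fold (edgeR adjusted p = 0.0099). It was the one member called in 21 of 22 alternatives; without LKB1-deficient replicates 2 and 4 its fold change was almost as large (-0.74, adjusted p = 0.0737).

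Rfc2, another small subunit, had 116, 89.5, 105 and 94.6 CPM in LKB1-deficient replicates 1 to 4, against 124, 123, 149 and 168 CPM in control replicates 1 to 4. The groups did not overlap and Rfc2 fell by 0.47 ± 0.15 on the log2 scale (1.39-fold, edgeR adjusted p = 0.0432). Its annotated exons overlap those of Lat2 on the other strand over 952 bases. Rfc5 had 82.1, 67.6, 75.1 and 79.3 CPM in LKB1-deficient cells, against 86.2, 90.5, 94.4 and 102 CPM in control cells. It did not overlap between groups either, with a log2 fold change of -0.30 ± 0.12 that did not pass (edgeR adjusted p = 0.0903).

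The remaining loader subunits had positive fold changes that were not called. Rfc1, the large subunit, had 277, 624, 249.3 and 497 CPM in LKB1-deficient replicates 1 to 4, against 299.96, 249.3, 153 and 145 CPM in control replicates 1 to 4. Its spread was wide in both groups and they overlapped; the log2 fold change of 0.96 ± 0.34 was the largest of any member and did not pass (edgeR adjusted p = 0.0623). It passed without LKB1-deficient replicate 1 (0.0463) or 3 (0.0362), and the log2 fold change was 0.32 without replicates 2 and 4. Rfc3 had 165, 345, 158 and 175 CPM in LKB1-deficient cells, against 159, 148, 148 and 146 CPM in control cells. Its log2 fold change was 0.49 ± 0.24 (edgeR adjusted p = 0.154) and 0.15 without LKB1-deficient replicate 2. Pcna, the clamp itself, had 267, 189.7, 226 and 199 CPM in LKB1-deficient cells, against 253, 262, 323 and 302 CPM in control cells, with a log2 fold change of -0.37 ± 0.15 (adjusted p = 0.0997).

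**Figure D3:**
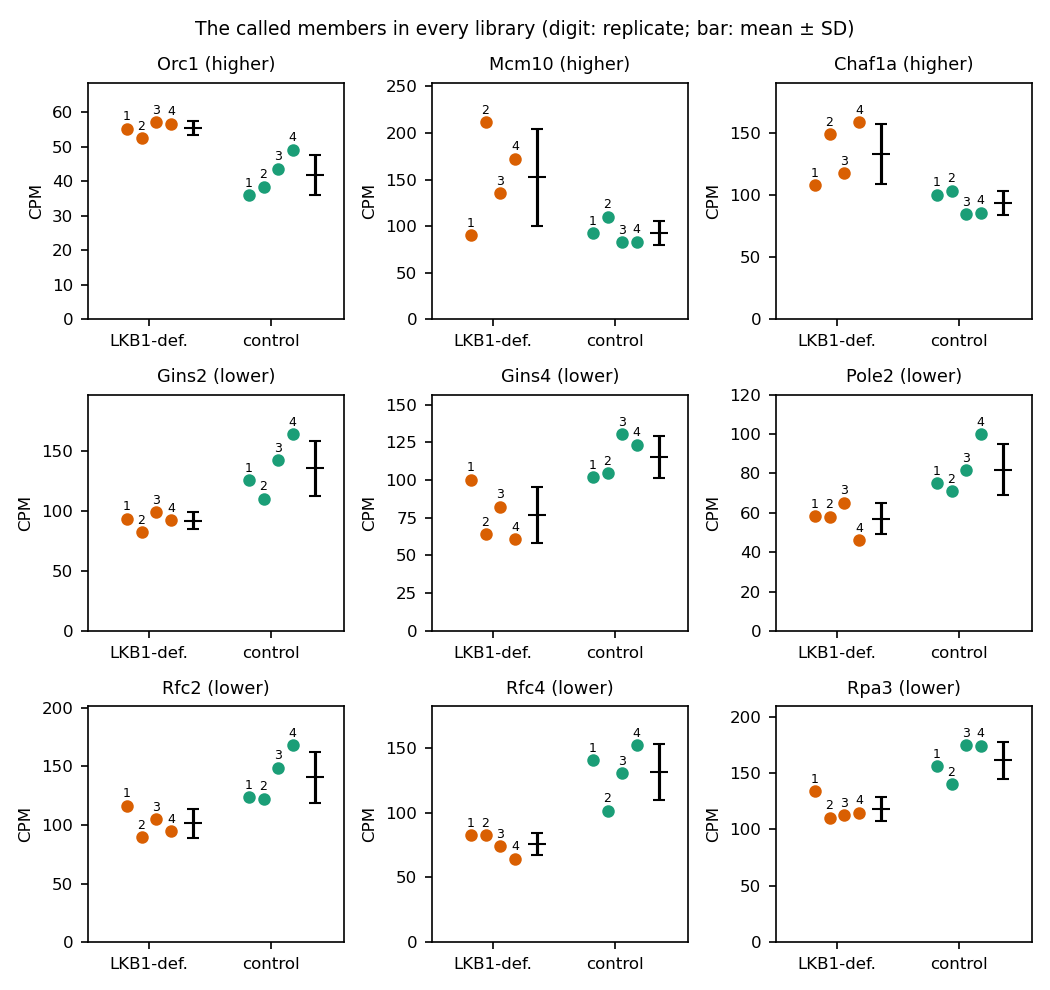
CPM of the 9 called members in each library, 1 panel per gene, with LKB1-deficient libraries on the left and control libraries on the right, points for libraries, their replicate number above them, and bars for the mean ± SD of each group. Points of the groups are separate in 8 of the 9 panels and overlap for Mcm10.

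Of replication protein A, the 3-part complex that coats single-stranded DNA, the smallest subunit was called. Rpa3 had 134, 110.4, 113 and 115 CPM in LKB1-deficient replicates 1 to 4, against 156, 140.3, 174 and 174 CPM in control replicates 1 to 4. The groups did not overlap, and Rpa3 fell by 0.45 ± 0.13 on the log2 scale (1.37-fold, edgeR adjusted p = 0.0328). Rpa1, the main DNA-binding subunit, and Rpa2, the subunit that is phosphorylated after damage, had log2 fold changes of -0.20 ± 0.15 and -0.25 ± 0.14 and were not called.

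The genes that finish Okazaki fragments had no call. Lig1, the ligase that seals nicks between fragments, had 349.98, 635, 670.5 and 913 CPM in LKB1-deficient replicates 1 to 4, against 725, 536, 361 and 357 CPM in control replicates 1 to 4. It spread more than 2-fold within each group, and its log2 fold change was 0.38 ± 0.31 (edgeR adjusted p = 0.385). That value was 0.16 with LKB1-deficient replicate 4 left out and 0.62 with control replicate 1 left out; among the libraries whose identifiers begin with EU, which leaves out replicate 1 of both groups, it was 0.82 (adjusted p = 0.0459). Fen1, the flap nuclease, averaged 109.5 ± 10.1 CPM in LKB1-deficient cells and 120.1 ± 4.5 CPM in control cells (SD, n = 4 each; log2 fold change -0.13 ± 0.12). Dna2, the nuclease and helicase that trims long flaps, had 25, 39.9, 22.3 and 21.8 CPM in LKB1-deficient cells, against 16.4, 15.3, 14.6 and 25.6 CPM in control cells. Control replicate 4 lay among the LKB1-deficient values, and the log2 fold change of 0.60 ± 0.24 did not pass (edgeR adjusted p = 0.0929).

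Chromatin assembly factor 1 places histones on newly copied DNA. Chaf1a, its large subunit, had 108, 149, 118 and 158 CPM in LKB1-deficient replicates 1 to 4, against 100.1, 103, 84.4 and 85.7 CPM in control replicates 1 to 4. The groups did not overlap and Chaf1a rose by 0.51 ± 0.15 on the log2 scale (1.42-fold, edgeR adjusted p = 0.0398). Its annotated exons overlap those of Ubxn6 on the other strand over 2542 bases. Chaf1b, the middle subunit, averaged 47.5 ± 8.18 CPM in LKB1-deficient cells and 57.0 ± 7.96 CPM in control cells (SD, n = 4 each; log2 fold change -0.26 ± 0.16).

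Across all roles the groups did not overlap for 13 of the 40 members (32.5%), 5 higher and 8 lower in LKB1-deficient cells, and for 26.1% of all tested genes (12.0% higher and 14.1% lower). The LKB1-deficient libraries did not contribute alike. In replicates 2 and 4, 33 and 32 members lay outside the range of the control libraries, against 22 and 24 in replicates 1 and 3. The same counts were not made over all tested genes. On the first principal component of all tested genes replicates 2 and 4 stood apart too. That position does not give a share of genes outside the control range, so whether the counts are particular to the members was not tested. With only LKB1-deficient replicates 1 and 3 set against the controls none of the 40 members was called, and 2.37% of all tested genes were. Of the 9 called members Orc1 (0.43), Gins2 (-0.49), Rpa3 (-0.38) and Rfc4 (-0.74) had log2 fold changes there that were within 1.5 times those with all libraries, as had Pole2 (-0.40) and Rfc2 (-0.34). Those of Mcm10 (0.30), Chaf1a (0.28) and Gins4 (-0.33) were smaller by over 1.5 times. Levels of mast cell and basophil markers moved with the same libraries, with summed levels of 5.06, 23.9, 8.66 and 20.2 CPM in LKB1-deficient replicates 1 to 4, against 4.40 to 5.75 CPM in control libraries; 3 of the 6 markers had enough reads to be tested, of which Gata2 was called higher, and Fcer1a was at 0 in LKB1-deficient replicates 1 to 3. Erythroid markers summed to 1.13, 17.8, 3.62 and 9.43 CPM in LKB1-deficient replicates 1 to 4, against 2.44 to 3.48 CPM in control libraries, with Hbb-bs and Hba-a1 at 0 throughout. NK cell markers summed to 104, 166, 91.4 and 153 CPM in LKB1-deficient replicates 1 to 4, against 75.3 to 127 CPM in control libraries; most of this was Eomes, which CD8 T cells also express, the defining Ncr1 stayed at or below 0.583 CPM, and neither of the 2 tested markers of the 4 was called. The part of these markers in the results was not tested.

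Most of the calls lay near the threshold, and Rfc4 was the one called member that stayed past the threshold whichever single library was left out (log2 fold change -0.89 to -0.71). Leaving out LKB1-deficient replicate 2 or 4, or control replicate 3 or 4, each ended the calls of Gins2 (edgeR adjusted p = 0.0632 to 0.0683 without them), Gins4, Pole2, Rfc2, Rpa3, Chaf1a and Mcm10. Leaving out control replicate 1 ended the same calls other than that of Gins2. Control replicate 2 ended those of Gins4 and Mcm10, LKB1-deficient replicate 1 that of Pole2 and LKB1-deficient replicate 3 that of Mcm10. The share of all tested genes called, 22.5% with all libraries, moved too. It was 23.2%, 10.5%, 26.7% and 9.61% without LKB1-deficient replicates 1 to 4 in turn. Without control replicates 1 to 4 in turn it was 15.7%, 19.1%, 9.69% and 12.5%, so calls were lost beyond the members too. Without LKB1-deficient replicates 1 to 4 in turn, 4, 0, 3 and 0 of the 40 members were called higher and 6, 1, 6 and 1 lower. Without control replicates 1 to 4 in turn, 0, 2, 0 and 2 members were called higher and 2, 5, 1 and 1 lower. Whether members lost calls more readily than other genes was not tested. Over the libraries that ended each call the edgeR adjusted p was 0.0505 to 0.108 for Gins4, 0.0505 to 0.097 for Pole2, 0.0502 to 0.113 for Rfc2 and 0.0544 to 0.0956 for Rpa3. It was 0.0614 to 0.111 for Chaf1a and 0.0535 to 0.131 for Mcm10. Orc1 lost its call without any single library other than control replicate 4 (adjusted p = 0.0642 to 0.107). The fold changes moved less than the calls: with any 1 library left out the log2 fold change was 0.34 to 0.49 for Orc1, -0.65 to -0.46 for Gins2, -0.52 to -0.41 for Rpa3 and -0.55 to -0.38 for Rfc2. It was -0.73 to -0.48 for Gins4, -0.61 to -0.42 for Pole2, 0.42 to 0.60 for Chaf1a and 0.52 to 0.90 for Mcm10.

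**Figure D4:**
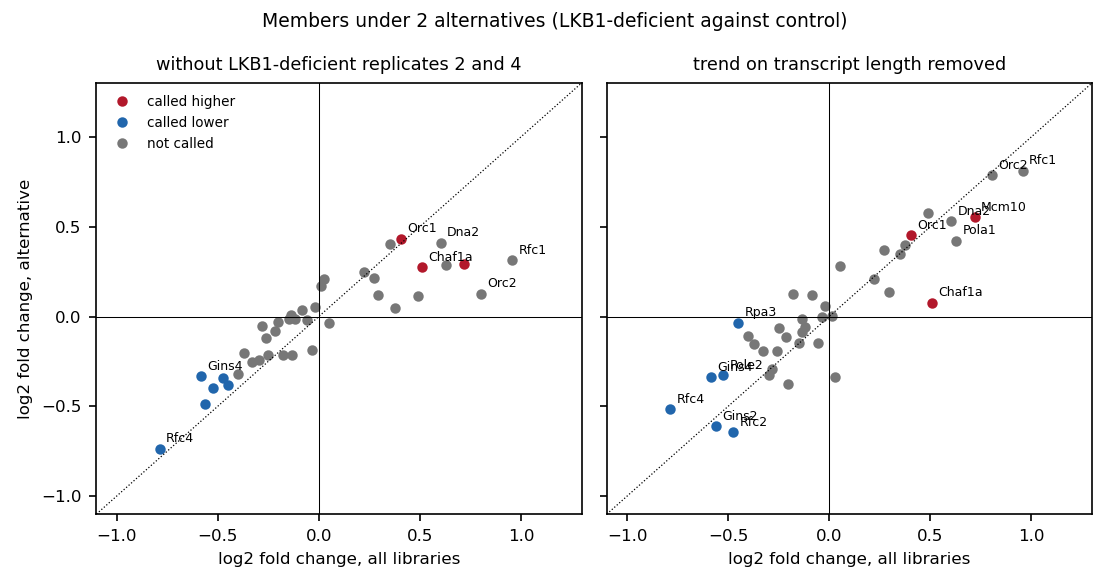
Log2 fold change of each member with all libraries on the horizontal axis, against the value without LKB1-deficient replicates 2 and 4 (left) and with the transcript length trend removed (right) on the vertical axis, with a dotted line of equality and colours for the calls with all libraries. Rfc4 stays far below 0 in both, at -0.74 and -0.52, whereas Rpa3 and Chaf1a come close to 0 once the length trend is removed.

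Longer transcripts tended to have higher fold changes. Spearman's rho between the log2 fold change and the length of the longest annotated transcript (GENCODE vM21) was 0.51 across the 40 members and 0.38 across 10030 tested genes, as a description, since genes share libraries. The 3 members called higher had a median length of 4867 bases and the 6 called lower of 1527.5 bases. With the length trend of each library removed, Rpa3 (682 bases) went to a log2 fold change of -0.03 (edgeR adjusted p = 0.849) and Chaf1a (7698 bases) to 0.08 (adjusted p = 0.611). Gins4, Pole2 and Mcm10 lost their calls as well, at -0.34, -0.33 and 0.56, while Rfc4 (-0.52, adjusted p = 0.0305), Gins2 (-0.61, 0.0229), Rfc2 (-0.65, 0.0318) and Orc1 (0.45, 0.0303) kept theirs. With this trend removed 4 of the 40 members were called, against 17.6% of all tested genes.

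Subunits of one complex were also compared by the ratio of their counts within a library, which does not depend on how libraries are scaled. The ratios come from 3′ end counts, so their change between groups is of interest and not their size. The 33 members that belong to 10 complexes gave 47 pairs, and in 14 pairs (29.8%) the ratio did not overlap between groups, against 25.9% of all pairs of tested genes. Each of the 14 had the smallest p that an exact permutation test of 4 against 4 libraries can give (two-sided p = 0.0286), and none passed after Benjamini-Hochberg adjustment over the 47 pairs (0.096).

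The largest difference was between the large and a small subunit of the clamp loader. The Rfc1 to Rfc4 ratio was 3.36, 7.57, 3.36 and 7.72 in LKB1-deficient replicates 1 to 4, against 2.14, 2.46, 1.18 and 0.955 in control replicates 1 to 4, a 3.25-fold higher mean. The ratio of Rfc3 to Rfc4 was 2.01, 4.19, 2.13 and 2.72 in LKB1-deficient cells, against 1.13, 1.46, 1.13 and 0.962 in control cells. In both pairs the lowest LKB1-deficient library lay above the highest control library, and the mean ratio of Rfc1 to Rfc4 was 2.15-fold higher without LKB1-deficient replicates 2 and 4. Rfc3 stood higher relative to Rfc2 and Rfc5 too, 1.84-fold and 1.63-fold with all libraries and 1.47-fold and 1.31-fold without LKB1-deficient replicate 2, where Rfc3 was far above the other libraries.

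**Figure D5:**
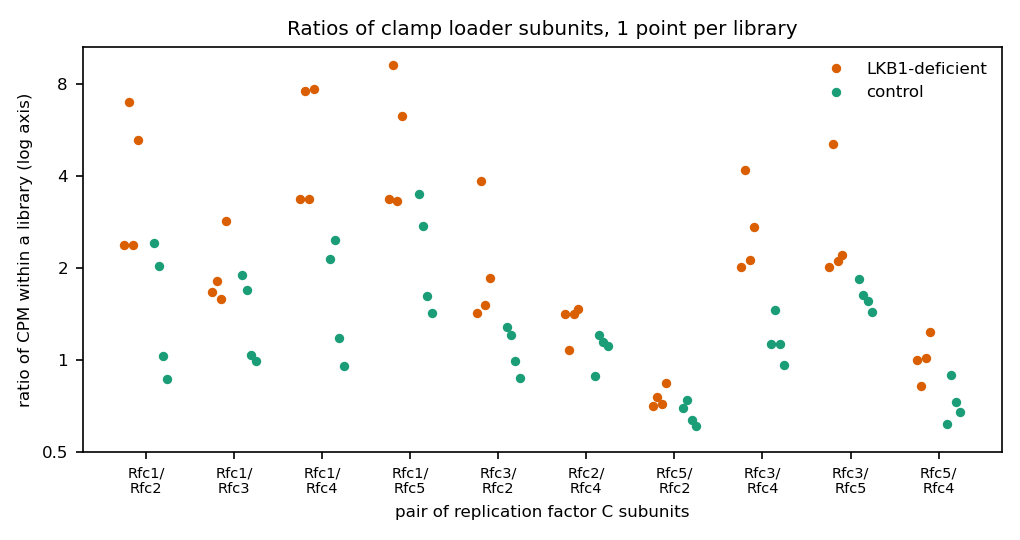
Ratio of CPM of the 10 pairs of clamp loader subunits in each library on a log axis, 1 point per library, with LKB1-deficient libraries left of control libraries in each pair. Of the pairs with Rfc1 only that with Rfc4 separates the groups, at 3.36 to 7.72 in LKB1-deficient cells and 0.955 to 2.46 in control cells.

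Other complexes differed less. Pole to Pole2 was 1.06, 0.844, 0.971 and 1.02 in LKB1-deficient replicates 1 to 4, against 0.756, 0.759, 0.654 and 0.536 in control replicates 1 to 4, 1.45-fold higher. Cdt1 to Gmnn, the loader against its inhibitor, was 0.318, 0.36, 0.327 and 0.299 in LKB1-deficient cells, against 0.257, 0.232, 0.244 and 0.262 in control cells, 1.31-fold higher. Within the MCM ring 4 of 15 pairs did not overlap (26.7%, near the 25.9% of all pairs of tested genes). Of the 4, 3 were Mcm3 over another subunit and so are not separate observations: 1.26-fold for Mcm2, 1.41-fold for Mcm5 and 1.40-fold for Mcm7. None of the 6 pairs in polymerase alpha-primase was separate. In 33 of the 47 pairs, and in 10 of the 14, the gene with the larger share in LKB1-deficient cells had the longer transcript.

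Genes that work beside the machinery were read from lists of related functions. Of 41 accessory factors, polymerase and primer-removal partners and chromatin proteins of the fork, 40 were tested, 4 were called higher and 2 lower (15%, against 22.5% of all tested genes), with a median log2 fold change of 0.07. Rif1, which sets the timing of origins, was 2.22-fold higher (log2 fold change 1.15 ± 0.27, edgeR adjusted p = 0.0161). Hells, a chromatin remodeller, was 2.24-fold higher (1.17 ± 0.24, adjusted p = 0.0123). Atad5, which takes PCNA off DNA, was 2.03-fold higher (1.02 ± 0.29, adjusted p = 0.0336), and Top1, the topoisomerase that relaxes DNA ahead of the fork, was 2.71-fold higher (1.44 ± 0.42, adjusted p = 0.0369), with groups that overlapped. Rnaseh2a and Rnaseh2c, subunits of the enzyme that cuts RNA out of DNA, were 1.57-fold and 1.56-fold lower (-0.65 ± 0.14 and -0.64 ± 0.14, adjusted p = 0.0122 and 0.0141). The calls of Hells, Rnaseh2a and Rnaseh2c held without any single library. That of Rif1 ended without LKB1-deficient replicate 4 or control replicate 3 (adjusted p = 0.0514 to 0.0519), and those of Atad5 (0.0817 to 0.0949) and Top1 (0.0624 to 0.109) without LKB1-deficient replicate 2 or 4 or control replicate 3 or 4, for Top1 also without control replicate 1. With the length trend removed the log2 fold changes of Rif1, Hells, Atad5 and Top1 were 0.66, 0.90, 0.64 and 1.40. Those of Rnaseh2a and Rnaseh2c were -0.61 and -0.34. Only Atad5 lost its call there (edgeR adjusted p = 0.059). Without both LKB1-deficient replicates 2 and 4 none of these genes was called, at 0.64, 0.76, 0.66, 0.55, -0.49 and -0.48 in the same order.

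Among 18 E2F and RB regulators 5 were called higher (E2f3, E2f7, E2f8, Lin54 and Mybl2) and 0 lower, 27.8% in all, against 22.5% of all tested genes (12.4% higher and 10.1% lower). E2f3, an activator of replication genes, had 69.2, 105, 69.9 and 89.5 CPM in LKB1-deficient replicates 1 to 4, against 43.2, 46.8, 35.9 and 39.1 CPM in control replicates 1 to 4. The groups were well apart (2.02-fold higher, log2 fold change 1.01 ± 0.16, edgeR adjusted p = 0.00534). Lin54, the DNA-binding part of the MuvB complex, was 1.95-fold higher (0.96 ± 0.15, adjusted p = 0.00474), and E2f8, a repressor among the E2F factors, was 1.96-fold higher (0.97 ± 0.20, adjusted p = 0.0124). E2f1, E2f2 and Rb1 had log2 fold changes of -0.36 ± 0.17, -0.02 ± 0.13 and -0.09 ± 0.17 and were not called.

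Of 44 mitosis genes 1 was called higher and 4 lower, 11.4% in all, against 22.5% of all tested genes. Called or not, 29 had positive and 15 negative log2 fold changes, with a median of 0.18, against 0.004 over all tested genes. Cenpa, the centromeric histone, was 1.80-fold lower (log2 fold change -0.85 ± 0.15, edgeR adjusted p = 0.00687). Spc24, a kinetochore protein, was 1.63-fold lower and Ccnb2, a mitotic cyclin, 1.49-fold lower, while Anln, which shapes the cleavage furrow, was 2.21-fold higher (edgeR adjusted p = 0.0211, 0.0216 and 0.019). The calls of Spc24 (0.0561 to 0.0615), Ccnb2 (0.0576 to 0.0664) and Anln (0.0503 to 0.0621) ended without LKB1-deficient replicate 2 or control replicate 3 or 4, and for Ccnb2 and Anln also without LKB1-deficient replicate 4. With the length trend removed Spc24 and Ccnb2 lost their calls (edgeR adjusted p = 0.0584 and 0.0595), while Cenpa and Anln kept theirs. Of 18 genes that supply deoxynucleotides 2 were called lower and 0 higher, 11.1% in all, against the same 22.5%. Samhd1, which breaks down deoxynucleotides, was 1.81-fold lower (-0.86 ± 0.19, edgeR adjusted p = 0.0136) and Dguok, the mitochondrial deoxyguanosine kinase, was 1.64-fold lower (-0.72 ± 0.14, adjusted p = 0.00917).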

How the data were processed

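The authors deposited 1 table of raw counts per gene for each of the 8 libraries. The counts were made from 3′ end, strand-specific libraries in which barcoded samples were pooled after first-strand synthesis, per the labels' protocols. Reads were aligned with STAR to mm10, per the submitters' processing notes; neither versions nor the counting tool, its strand setting and annotation are given in the sources used here. Reads that fell in no gene came to 14.9 to 17.5% of the uniquely placed reads (in a gene, in none or ambiguous) in LKB1-deficient libraries and 12.1 to 14.3% in control libraries; this line and 4 others without a gene name were dropped.

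The tables were joined, genes filtered with filterByExpr (minimum count 10, minimum total 15), scaled by TMM and tested with edgeR 4.0.16 (robust quasi-likelihood test, LKB1-deficient over control, Benjamini-Hochberg threshold 0.05) in R 4.3.3. The test was tried on simulated counts first. CPM are TMM-scaled, and SE is the fold change over the root of the F statistic. Alternatives used DESeq2 1.42.0, limma-voom (limma 3.58.1), other scalings and filters, thinning to equal depth, a term for the sample identifier prefix (ET for replicate 1 of both groups, EU for the others), removal of the transcript length trend, a replicate block, stricter thresholds and leaving out libraries. Ratios of subunits were tested with scipy 1.17.1. Transcript lengths and exon overlaps came from GENCODE vM21 (GRCm38), and 96.5% of tested genes had a length. Promoters came from RefSeq.

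All 40 members are named, as are the 3 called genes of lowest p (or fewer) per direction of each related list, E2f1, E2f2, Rb1 and Stk11; E2f7, Mybl2, the genes sharing exons and the marker genes named were picked after their values were seen. The members and lists were chosen with earlier results of these data known. The subunit pairs, and the analysis without both LKB1-deficient replicates 2 and 4 for them, were added after the data were seen.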

Additional observations from a re-analysis of the deposited data

Results flagged for a closer look

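In groups of 4 libraries, 1 library lay far from the other 3 by Dixon's criterion in 8 of the 116 groups examined, 7 of them among the 80 groups of members; chance gives about 1 in 20. Rfc3 had 345 CPM in LKB1-deficient replicate 2, against 158 to 175 CPM in the other LKB1-deficient libraries, and 159 CPM in control replicate 1, against 146 to 148 CPM in the other control libraries. Cdc45 had 128 CPM in LKB1-deficient replicate 1, against 103 to 108 CPM in the others of its group. Chaf1b had 59.7 CPM in LKB1-deficient replicate 3, against 42.1 to 44.2 CPM. Cdt1 had 96.4 CPM in control replicate 4, against 79.2 to 81.0 CPM in the other control libraries. Dna2 had 25.6 CPM in control replicate 4, against 14.6 to 16.4 CPM. Pole had 56.8 CPM in control replicate 1, against 53.4 to 53.8 CPM. Lin54, a related gene, had 78.8 CPM in LKB1-deficient replicate 1, against 54.2 to 57.4 CPM in the others of its group.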

How the results depend on the processing

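Of 880 member values over 22 alternatives, 728 kept their direction and side of the threshold, a count that includes members that were not called and stayed so. Another 102 values lost a call, 20 gained one and 30 changed sign. All 102 lost calls fell on the called members, whose calls held in between 4 (Mcm10) and 21 (Rfc4) of the 22 alternatives. The 3 members called higher became 7 with DESeq2, 1 with a mean CPM of at least 10 or the length trend removed, and 0 with upper quartile scaling, total count scaling, no filter on low counts, the identifier prefix term, an adjusted p of 0.01, a test against a 1.2-fold change, or without both LKB1-deficient replicates 2 and 4; leaving out 1 library gave 0 to 4. The 6 called lower became 3 with the length trend removed, 1 at an adjusted p of 0.01 or against a 1.2-fold change, and 0 without both replicates; leaving out 1 library gave 1 to 6. The split of 3 higher and 6 lower was 0 and 7 with upper quartile scaling and 0 and 8 with total count scaling, which moved the median of all tested genes to -0.10 and -0.16 and that of the members to -0.20 and -0.26. The members' median was -0.03 (-0.025) with the length trend removed and -0.02 (-0.017) without both replicates, and -0.12 to -0.06 with 1 library left out. With the replicate block, 0 members were called higher and 2 lower; same-numbered libraries had correlations of -0.25, 0.29, 0.30 and -0.09, so the numbers were not taken to pair them. Replicate 1 of both groups has identifiers that begin with ET and the other 6 libraries with EU; what the prefix stands for is not stated. The 4 related genes called higher became 9 with DESeq2, 2 with the prefix term or a 1.2-fold change, and 0 at 0.01 or without both replicates (1 to 8 with 1 library left out); the 2 called lower became 5 with DESeq2 or upper quartile scaling, 8 with total counts, 4 at a mean CPM of 10, and 0 at 0.01 or without both (2 to 5 with 1 left out). The 14 separate subunit pairs became 20 without both and 14 to 21 with 1 left out, a count that cannot fall when libraries are removed; of all pairs of tested genes 35.1% and 27.7 to 36% were then separate. Over these alternatives 1.48 to 14.5% of all tested genes were called higher and 0.895 to 15.2% lower. Signs turned for genes near 0, none of them called: Mcm2 (upper quartile -0.088, total count -0.143, no filter -0.022, CPM of 10 -0.011, EU libraries alone -0.121; -0.105 to 0.094 with 1 left out), Mcm6 (-0.121 to 0.031), Mcm7 (0.009 without both), Cdt1 (0.059 with length, 0.054 without both; -0.052 to 0.048), Gins1 (0.123 with length), Orc6 (-0.049, -0.115 and -0.036 with upper quartile, total count and without both; -0.008 to 0.155), Prim1 (0.004 thinned; -0.083 to 0.03), Pold2 (0.118 with length, 0.034 without both), Pole (-0.068, -0.124, -0.009, -0.009 and -0.336 with upper quartile, total count, no filter, EU alone and length; -0.056 to 0.097), E2f2 (0.092 EU alone, 0.022 without both; -0.107 to 0.044), Rb1 (-0.241 to 0.008) and Stk11 (0.103 EU alone, 0.177 without both; -0.224 to 0.079). The causes were not tested. The median SE of the members was 0.146 on the log2 scale, which limits what 4 libraries a group can show.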
